A study of Homo sapiens with 4 samples.

Results

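The 7 genes described here encode the human Argonaute proteins AGO1, AGO2, AGO3 and AGO4 and their TNRC6 partners TNRC6A, TNRC6B and TNRC6C. They were chosen by gene symbol, older EIF2C names included, and each was measured by its brightest probe set over the arrays. All 7 had 1 probe set each, among 18603 probe sets and 15870 named genes in all. The arrays held total RNA of MDA-MB-231 cells, an established human breast carcinoma line, in 2 samples labelled shDROSHA (a short hairpin RNA against DROSHA) and 2 samples labelled shNC, the control. Titles call the replicates of each group biological. The series' design text describes the control as mock-transfected, and the labels do not say which control construct the shNC cells carried. The hairpin sequence, the number of clones and the time after transfection were not stated there.

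Argonautes are the proteins that hold a mature microRNA and use it as a guide to pair with target mRNAs. AGO2 is the member best known for cutting a fully paired target, whereas silencing of partly paired targets runs through TNRC6 proteins, which bind Argonautes through glycine-tryptophan repeats and recruit the deadenylases that shorten poly(A) tails. DROSHA acts upstream, in the nucleus, where it cuts primary microRNA transcripts. Argonaute protein without a guide RNA is known to be less stable, but arrays measure mRNA and not protein. The comparison of shDROSHA with shNC asks here whether the mRNAs of the silencing effectors differ when DROSHA is depleted.

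The targeted gene followed the labels. DROSHA signals were 8.71 and 8.74 in the shDROSHA arrays, against 9.66 and 9.76 in the shNC arrays (log2 signal). Both shDROSHA arrays lay below both shNC arrays, and the difference of -0.99 on the log2 scale left 50.4% of the shNC signal. In such bulk RNA, fewer cells with a transcript and less of it per cell cannot be told apart. Of the 8 genes listed as present in MDA-MB-231 cells, VIM, AXL and CAV1 among them, all had mean signals between 7.94 and 11.96. In the test described next, 3 of these 8 rose (S100A4 by 0.62, FOSL1 by 0.37 and AXL by 0.33) and 2 fell (CAV1 by 0.23 and MSN by 0.22). Of the genes listed as low or absent, 6 were measured: 5 had mean signals between 6.15 and 7.07, while KRT8, a simple-epithelial keratin, was bright at 11.50. Markers of other cell types (6 measured) lay between 4.41 and 6.37, and none of them passed that test. The array medians were 7.21 and 7.21 in shDROSHA and 7.25 and 7.24 in shNC.

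None of the 7 effector genes passed the test across all probe sets, in which 1192 probe sets (6.41%) had an adjusted p under 0.05. The test was limma, with p-values adjusted by Benjamini-Hochberg across the whole array and a prior variance allowed to vary with brightness (the trended fit). With 1 constant prior variance the count among the 7 genes was also 0, against 1 probe set (0.00538%) over the whole array. At an unadjusted p under 0.05, 3 of the 7 genes (42.9%) were counted in the trended fit, AGO4, AGO1 and AGO2, against 19.3% of all probe sets. At an adjusted p of 0.10 the trended count was 1, AGO4, against 9.8% of all probe sets. In the constant fit the count at an unadjusted p under 0.05 was 2 of 7 (AGO4 and AGO1), against 14.9% of all probe sets. The groups did not overlap at 4 of the 7 genes (57.1%), against 47.8% of all probe sets, so separation of the groups was common on this array. At 3 of them (42.9% of the 7) the shDROSHA arrays were the lower ones, against 24.4% of all probe sets. With groups of 2, the smallest two-sided p of an exact permutation test is 0.333, and every p below that rests on spread pooled over probe sets.

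**Figure D1:**
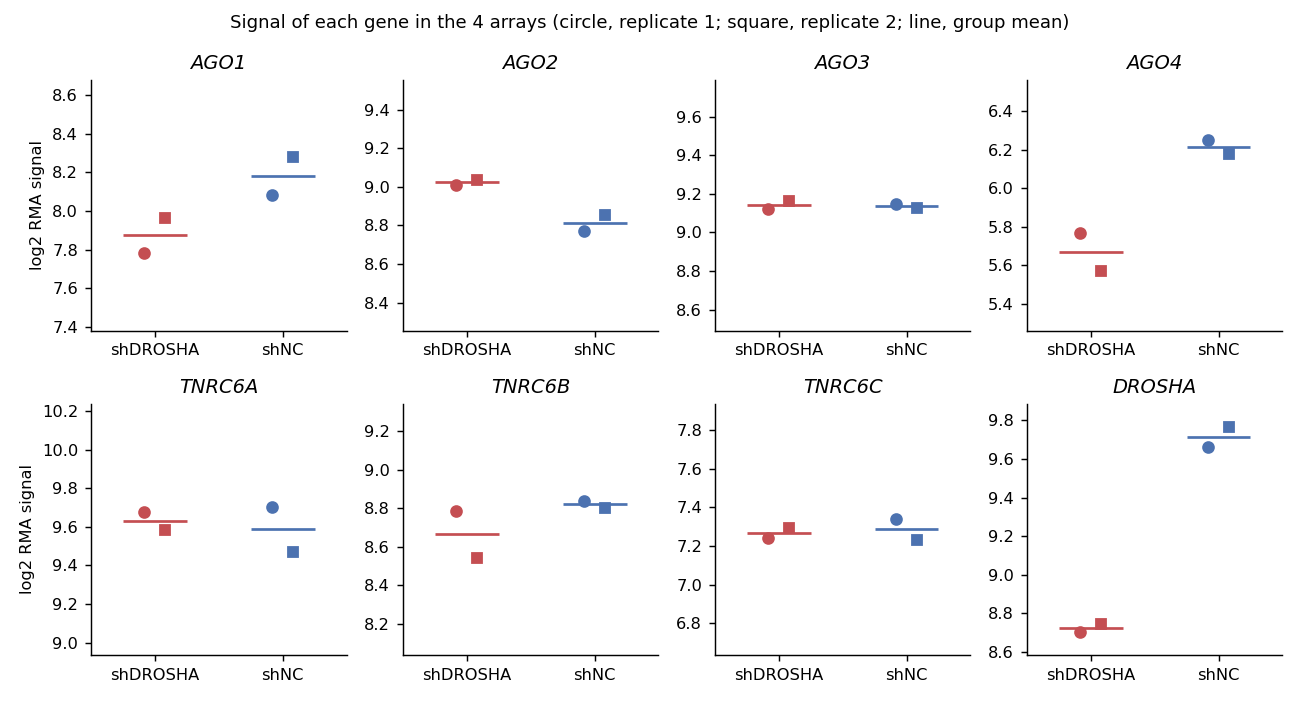
Log2 RMA signal (vertical axis, each panel spanning the same height) of the 7 effector genes and DROSHA in shDROSHA (left, red) and shNC arrays (right, blue), with points for single arrays and lines for group means. AGO4 and AGO1 were lower and AGO2 was higher in both shDROSHA arrays, whereas the groups overlapped for AGO3, TNRC6A and TNRC6C.

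AGO4, an Argonaute that lacks target-cutting activity, had the largest difference of the 7 genes. Its signals were 5.77 and 5.57 in the shDROSHA arrays, against 6.25 and 6.18 in the shNC arrays. Both shDROSHA arrays were below both shNC arrays, and the gap between the groups exceeded the gap of 0.197 between the shDROSHA arrays and that of 0.0732 between the shNC arrays. The group means were 5.67 ± 0.139 in shDROSHA and 6.22 ± 0.0518 in shNC (SD, n = 2 each), a difference of -0.54 (SE 0.162, unadjusted 95% interval -0.89 to -0.20), which left 68.6% of the shNC signal. The limma adjusted p was 0.0641 in the trended fit and 0.18 in the constant fit, so the difference did not pass either. Of all probe sets, bright and dim together, 2.23% differed by as much or more. The share among probe sets as dim as AGO4 was not computed. AGO4 was also the dimmest of the 7 probe sets, at the 26.4 percentile of mean signal. Its mean signal of 5.94 lay within the range of the markers of other cell types, 4.41 to 6.37. Expression of AGO4 above background is thus not established by these signals. When probe sets were split into 5 equal bins of signal, 1.94% were called in the bin of AGO4, against 15.6% in the brightest bin. When single arrays were left out, the difference was -0.64 without shDROSHA replicate 1 and -0.45 without shDROSHA replicate 2. Without shNC replicate 1 it was -0.51, and without shNC replicate 2 it was -0.58. In such fits the group left with 1 array has no spread of its own. Their p-values rest largely on spread pooled over probe sets, so only the differences are given.

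AGO1, a broadly expressed Argonaute of the same chromosomal block, differed in the same direction. Its signals were 7.78 and 7.97 in the shDROSHA arrays, against 8.08 and 8.28 in the shNC arrays. The groups were separate, but the nearest arrays of the groups were closer to each other than the arrays within either group, which lay 0.185 apart in shDROSHA and 0.196 apart in shNC. The means were 7.87 ± 0.131 in shDROSHA and 8.18 ± 0.138 in shNC (SD, n = 2 each), and the difference was -0.31 (SE 0.108, unadjusted 95% interval -0.54 to -0.08). Its limma adjusted p was 0.118 in the trended fit and 0.324 in the constant fit. When single arrays were left out, the difference was -0.22 without shDROSHA replicate 1 and -0.40 without shDROSHA replicate 2. Without shNC replicate 1 it was -0.41, and without shNC replicate 2 it was -0.21. Arrays of both groups thus moved its difference by about as much.

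AGO2, the Argonaute with the strongest target-cutting activity, was the member with a difference above 0 and groups that did not overlap. Its signals were 9.01 and 9.04 in the shDROSHA arrays, against 8.77 and 8.85 in the shNC arrays. The lowest shDROSHA array thus stood above the highest shNC array. The difference was 0.21 (SE 0.0774, unadjusted 95% interval 0.04 to 0.38), or 1.16-fold, with limma adjusted p-values of 0.14 in the trended and 0.343 in the constant fit. A difference of that size or more was found at 26.9% of all probe sets. It stayed between 0.17 and 0.25 when single arrays were left out, and no such fit called it.

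AGO3, the third gene of the chromosomal block, gave nearly the same signal in every array. It had 9.12 and 9.16 in the shDROSHA arrays, against 9.15 and 9.12 in the shNC arrays, so that the groups overlapped. The difference was 0.004 (SE 0.0722), and its unadjusted 95% interval, -0.15 to 0.16, corresponds to 0.901-fold to 1.12-fold. A change of the size measured for AGO4 lies outside that interval.

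**Figure D2:**
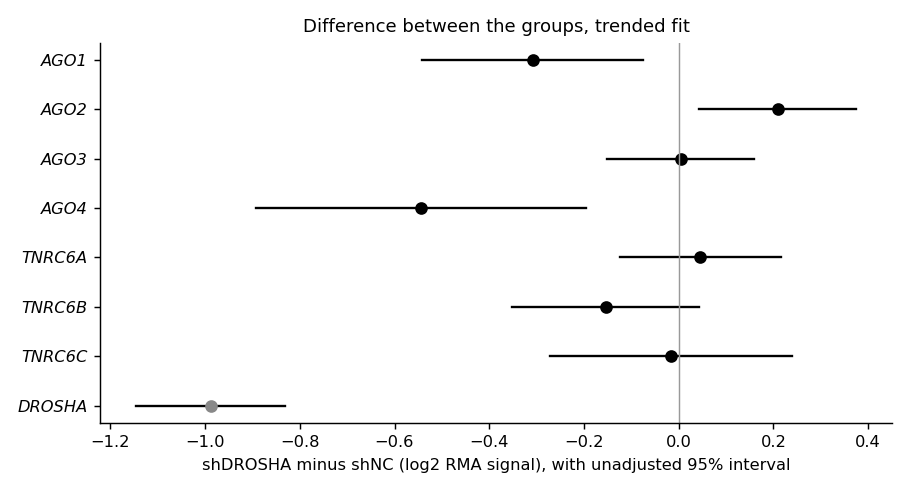
Difference of log2 RMA signal, shDROSHA minus shNC, of the 7 effector genes (black) and DROSHA (grey), with unadjusted 95% intervals of the trended fit as lines. The intervals of AGO1, AGO2 and AGO4 do not include 0, those of AGO3 and the TNRC6 genes do, and none of the 7 genes passed after adjustment over all probe sets.

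The TNRC6 genes, which encode the scaffold between Argonautes and the deadenylases, differed by less than AGO4 and AGO1. TNRC6B had 8.79 and 8.54 in the shDROSHA arrays, against 8.83 and 8.80 in the shNC arrays. The groups did not overlap, but shDROSHA replicate 1 was close to the controls, and 1 array carried the difference. That difference was -0.15 (SE 0.0917, unadjusted 95% interval -0.35 to 0.04, limma adjusted p 0.401) with all arrays, -0.03 without shDROSHA replicate 2 and -0.28 without shDROSHA replicate 1.

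TNRC6A, also known as GW182 after its glycine-tryptophan repeats, was measured at 9.68 and 9.58 in the shDROSHA arrays, against 9.70 and 9.47 in the shNC arrays. The shNC arrays enclosed both shDROSHA arrays. The difference was 0.05 (SE 0.0795, unadjusted 95% interval -0.12 to 0.22, limma adjusted p 0.831), and without shNC replicate 2 it was -0.07. TNRC6C, the remaining paralog, had 7.24 and 7.30 in the shDROSHA arrays, against 7.34 and 7.23 in the shNC arrays. Here too the shDROSHA arrays lay within the range of the controls. Its difference of -0.02 (SE 0.119, unadjusted 95% interval -0.27 to 0.24, limma adjusted p 0.968) changed sign to 0.02 when arrays were centred on their medians. Over the 3 genes the intervals reach down to 0.784-fold, for TNRC6B, and up to 1.18-fold, for TNRC6C.

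Differences among the Argonautes were set against each other within each array, as the log2 signal of AGO4 minus that of another Argonaute. Only the shift of such a value between groups is used, since probe sets differ in affinity. AGO4 minus AGO2 was -3.24 and -3.46 in the shDROSHA arrays, against -2.52 and -2.68 in the shNC arrays, a shift of -0.75. AGO4 minus AGO3 was -3.35 and -3.59 in shDROSHA and -2.90 and -2.95 in shNC, a shift of -0.55. For both pairs the shDROSHA arrays lay below the shNC arrays. AGO4 minus AGO1 was -2.01 and -2.39 in shDROSHA and -1.83 and -2.10 in shNC, and these values overlapped, with a shift of -0.24. Over the 3 pairs the exact two-sided permutation p was 0.333 for AGO2, 0.333 for AGO3 and 0.667 for AGO1 (adjusted 0.5, 0.5 and 0.667), and 0.333 is the smallest that 2 arrays against 2 allow. AGO4 was singled out for these pairs with its difference known. Argonaute coding sequences resemble each other, and how far the probes tell the paralogs apart was not tested.

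**Figure D3:**
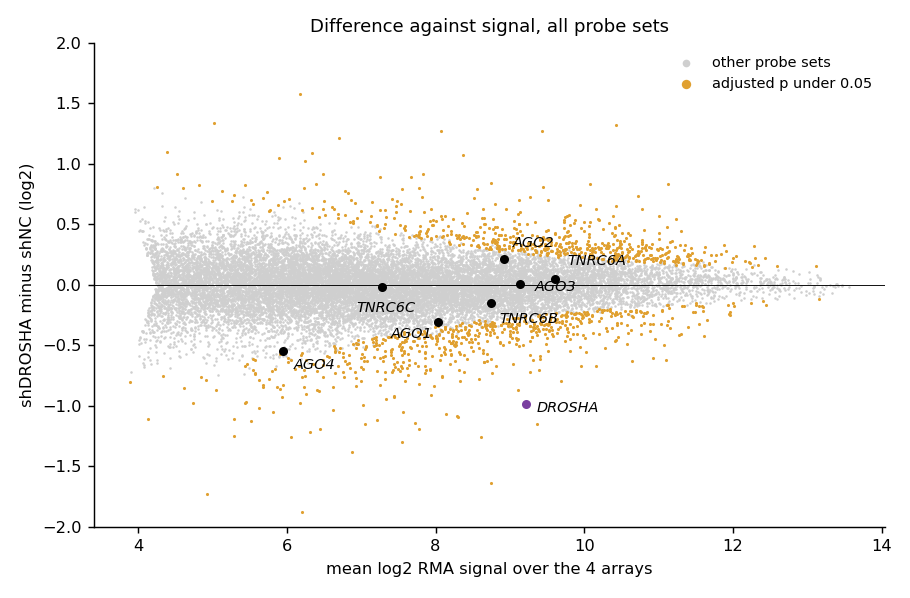
Difference of log2 RMA signal, shDROSHA minus shNC (vertical axis), against mean signal over the 4 arrays (horizontal axis) for all probe sets, with calls at adjusted p under 0.05 in the trended fit in orange, the 7 effector genes in black and DROSHA in purple. 3 probe sets lie outside the drawn range. AGO4 lies among the uncalled dim probe sets, some of which lie lower, and calls reach smaller differences as signal increases.

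AGO4, AGO1 and AGO3 lie next to each other, in this order and on the same strand, on human chromosome 1, whereas AGO2 and the TNRC6 genes lie on other chromosomes. The sequences around their annotated starts are shown because the measured differences of the 3 neighbours were unequal (-0.54, -0.31 and 0.004). None of the 3 passed, and the exact tests could not separate AGO4 from AGO1 or AGO3. A link of the sequences to these differences was not tested. Printed are 250 bases before to 50 after the start, from RefSeq (GRCh38.p14, plus strand), 5′ to 3′. Matches to the GC box GGGCGG, read on both strands, are in capitals. The windows are chr1:35807766-35808065 for AGO4, chr1:35882959-35883258 for AGO1 and chr1:35930855-35931154 for AGO3. The table gives 1 start for each of these genes, and other starts were not used here.
AGO4: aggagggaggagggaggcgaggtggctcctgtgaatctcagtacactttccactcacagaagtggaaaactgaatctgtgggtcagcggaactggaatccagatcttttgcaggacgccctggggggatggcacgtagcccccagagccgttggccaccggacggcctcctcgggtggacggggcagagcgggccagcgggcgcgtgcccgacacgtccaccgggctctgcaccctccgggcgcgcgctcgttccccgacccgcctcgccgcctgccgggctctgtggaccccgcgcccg
AGO1: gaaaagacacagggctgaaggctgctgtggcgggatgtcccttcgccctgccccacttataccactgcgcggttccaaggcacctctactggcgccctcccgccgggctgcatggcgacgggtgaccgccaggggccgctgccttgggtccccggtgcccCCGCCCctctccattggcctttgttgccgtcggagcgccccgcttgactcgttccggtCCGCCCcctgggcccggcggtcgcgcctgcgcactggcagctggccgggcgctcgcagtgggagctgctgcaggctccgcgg
AGO3: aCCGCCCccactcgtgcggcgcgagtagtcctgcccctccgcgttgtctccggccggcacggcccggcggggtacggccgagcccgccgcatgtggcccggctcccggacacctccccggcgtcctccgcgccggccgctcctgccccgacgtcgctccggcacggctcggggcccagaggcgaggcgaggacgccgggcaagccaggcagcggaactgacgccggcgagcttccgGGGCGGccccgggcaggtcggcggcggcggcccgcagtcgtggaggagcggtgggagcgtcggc

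The AGO1 and AGO3 windows held 2 GC boxes each and the AGO4 window 0, and 45% of 35116 windows of the same length in the RefSeq table held at least 1. The GC box is the motif bound by SP1 and related factors. CCAAT, also searched on both strands, was found in 1 place in the AGO1 window and not in the other two, against 34.6% of all windows. TATAAA (11.5% of all windows) and CACGTG (7.26%) were in none of the 3. GC content was 69% for AGO4, 72.3% for AGO1 and 80% for AGO3, with 29, 30 and 50 CpG dinucleotides, against medians of 58.7% and 14 over all windows. A match is a description of these letters and says nothing of binding in these cells.

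None of the 6 nearest measured genes on either side of the block passed the trended fit, and whether they differed from AGO4 and AGO1 was not tested. Upstream of AGO4, CLSPN (claspin, of the replication checkpoint) differed by -0.07 (SE 0.0724), C1orf216 by -0.07 (SE 0.172) and PSMB2, a proteasome subunit, by 0.06 (SE 0.0462). Beyond AGO3, TEKT2, a protein of cilia and sperm tails, differed by -0.19 (SE 0.172), ADPRS, which removes ADP-ribose from proteins, by 0.12 (SE 0.129) and COL8A2, a collagen chain, by 0.15 (SE 0.189). The limma adjusted p-values of the 6 neighbours were between 0.541 and 0.894. The intervals of the dimmer neighbours are wide: that of TEKT2, -0.56 to 0.18, includes the AGO1 difference and narrowly the AGO4 difference, and that of C1orf216, -0.43 to 0.30, includes the AGO1 difference.

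**Figure D4:**
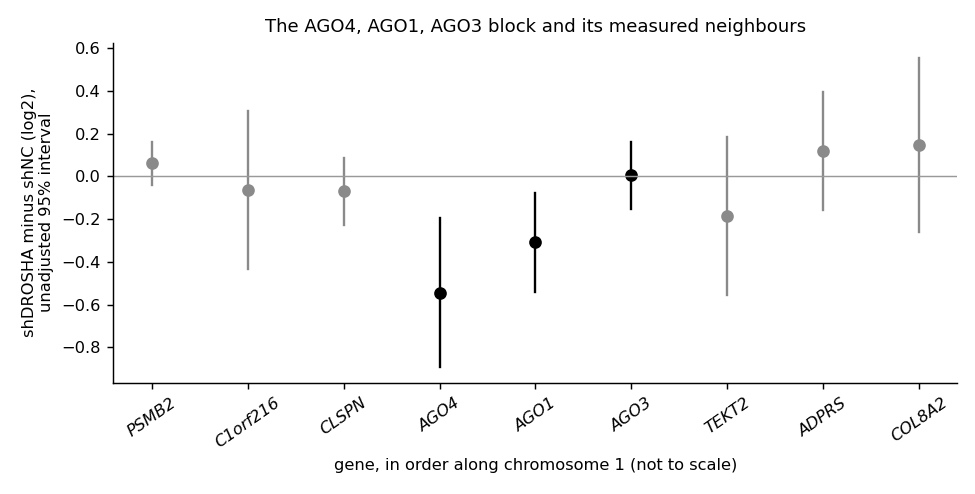
Difference of log2 RMA signal, shDROSHA minus shNC, with unadjusted 95% intervals of the trended fit, for AGO4, AGO1 and AGO3 (black) and the 3 nearest measured genes on each side (grey), in gene order along chromosome 1. AGO4 and AGO1 are the 2 genes of the row whose intervals do not include 0.

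The genes whose profiles over the 4 arrays were nearest to that of AGO4 were RBL2, PPARGC1A, PELI2, CCNG2 and SLC25A53, by Euclidean distance of mean-centred log2 signals (0.0185 to 0.0483). A difference close to that of AGO4 follows from this choice, so the sizes and calls of these genes are no support for the AGO4 difference. RBL2, a pocket protein of the retinoblastoma family, had 7.37 and 7.18 in the shDROSHA arrays, against 7.85 and 7.76 in the shNC arrays. Its difference of -0.53 was close in size to that of AGO4, and it passed the trended fit (limma adjusted p 0.0133). PPARGC1A, a transcriptional coactivator of mitochondrial genes, fell by 0.54 (limma adjusted p 0.0109). CCNG2, cyclin G2, fell by 0.51 (limma adjusted p 0.00522). PELI2, a ubiquitin ligase of the Pellino family, fell by 0.55 (limma adjusted p 0.0301). SLC25A53, a mitochondrial carrier family protein, differed by -0.51 without passing (limma adjusted p 0.121), and was dimmer than AGO4. The 4 genes that passed had brighter probe sets than AGO4, for which the trended fit takes a smaller spread. With 4 arrays such likeness is weak: 1040 of 15885 named probe sets (6.55%) had a Pearson's r above 0.95 with AGO4.

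The other genes of the silencing pathway were taken from 5 lists, of which 66 of 81 genes were measured. In the trended fit 3 rose and 0 fell (4.55%), against 3.12% higher and 3.28% lower, or 6.41% together, of all probe sets, and the median difference was -0.001, against 0.0009 over all probe sets. At an unadjusted p under 0.05 there were 11 (16.7%), against 19.3% of all probe sets. The constant fit called 0 of the 66 genes, as did the trended fit without shNC replicate 1. The split was not stable: the trended fit called 5 higher and 3 lower without shDROSHA replicate 1, 1 higher and 2 lower without shDROSHA replicate 2, and 3 higher and 2 lower with quantile normalization again. The 3 that rose with all arrays, GEMIN5, DCP2 and CNOT7, belonged to different lists.

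Upstream of the Argonautes, the chaperones and cofactors that load small RNAs gave no call. Of 12 measured genes, which include the HSP90 chaperones and the TARBP2 and PRKRA cofactors of Dicer, 0 passed in either direction, with a median of 0.02 and a range of -0.12 to 0.30. The largest difference was that of DICER1, the cytoplasmic ribonuclease that cuts precursor microRNAs. It had 7.75 and 7.83 in the shDROSHA arrays, against 7.64 and 7.34 in the shNC arrays, and the limma adjusted p was 0.184. FKBP4, an HSP90 co-chaperone, differed by -0.12, and DNAJA2, an HSP40 partner of HSP70, by 0.10.

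Among 26 measured partners and regulators of Argonaute and TNRC6 proteins, 1 rose and 0 fell, with a median of -0.02. The gene that rose was GEMIN5, an RNA-binding subunit of the SMN complex that assembles small nuclear ribonucleoproteins. It had 9.84 and 9.74 in the shDROSHA arrays, against 9.35 and 9.56 in the shNC arrays, a difference of 0.34 (SE 0.0773, limma adjusted p 0.017). RBM4, an RNA-binding splicing and translation regulator, differed by -0.22 (limma adjusted p 0.0577). ANKRD52, a subunit of the PP6 phosphatase that dephosphorylates AGO2, differed by -0.29 (limma adjusted p 0.113). FXR1, a relative of the fragile X protein, differed by 0.11 (limma adjusted p 0.258).

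Downstream, 15 genes of decapping and mRNA decay were measured, of which 1 rose and 0 fell, with a median of -0.04. EIF4A2, PABPC1 and PAN2 of that list were not measured. DCP2, the catalytic subunit that removes the mRNA cap, had 8.46 and 8.67 in the shDROSHA arrays, against 8.19 and 8.13 in the shNC arrays. Its difference was 0.40 (SE 0.097, limma adjusted p 0.0227). DCP1A, the activator of DCP2, had 5.60 and 5.87 in the shDROSHA arrays, against 6.55 and 6.16 in the shNC arrays. This difference of -0.62 was the largest in size of the 66 genes and did not pass (limma adjusted p 0.0572). Its probe set was about as dim as that of AGO4, at the 28.1 percentile of signal. DDX6, a helicase that joins deadenylation to decapping, differed by 0.12, and EIF4ENIF1, which binds the cap-binding protein eIF4E, by -0.19.

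The CCR4-NOT deadenylase, the complex that TNRC6 proteins recruit, had 11 measured genes with its associated TOB proteins, of which 1 rose and 0 fell. CNOT1, CNOT6, BTG1 and BTG2 of that list were not measured. CNOT7, a catalytic deadenylase subunit, had 9.58 and 9.73 in the shDROSHA arrays, against 9.33 and 9.36 in the shNC arrays (difference 0.30, limma adjusted p 0.0208). CNOT8, its catalytic paralog, differed in the opposite direction by -0.18 without passing (limma adjusted p 0.113). CNOT9, the subunit that holds tryptophans of TNRC6 proteins, differed by 0.19 (limma adjusted p 0.0572), and CNOT2, of the core of the complex, by 0.12. Of the PIWI clade, germline relatives of the Argonautes, PIWIL1 and PIWIL2 were measured. Both were dim, with mean signals of 5.36 and 4.57, and neither passed.

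**Figure D5:**
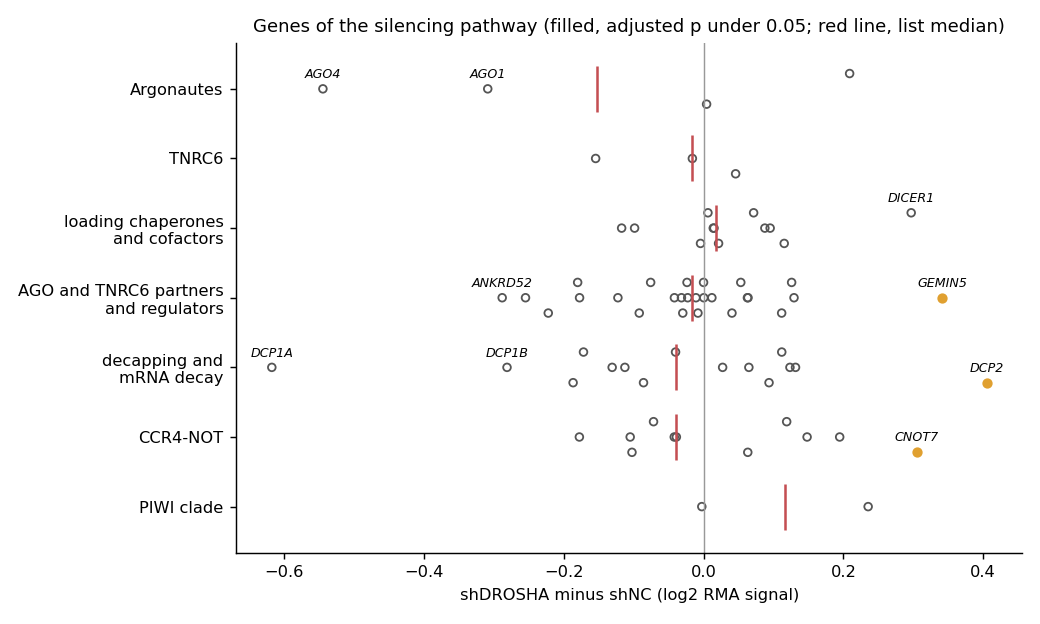
Difference of log2 RMA signal, shDROSHA minus shNC, of the 4 Argonaute genes, the 3 TNRC6 genes and the 66 measured genes of 5 silencing pathway lists, with 1 point a gene, filled where the adjusted p of the trended fit was under 0.05, and red lines at list medians. GEMIN5, DCP2 and CNOT7 are filled, and the medians of all lists but the Argonautes and the PIWI clade lie within 0.04 of 0.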

How the data were processed

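The authors deposited 1 log2 signal for each probe set on each array, made with RMA (background correction, quantile normalization between arrays and summary of probes), per the submitters' processing notes. Version, filters and genome build are not stated in the labels. RMA gives arrays like distributions and so hides a shift of most transcripts, dim probe sets can reflect background, and their fold changes are compressed. All 18603 probe sets were fitted with limma 3.58.1 in R 4.3.3 (lmFit, eBayes), shDROSHA minus shNC, with Benjamini-Hochberg adjustment and a threshold of 0.05. Every adjusted p comes from limma unless an exact test is named. The trended fit is used because spread depends on brightness: over 5 equal bins of signal, the median residual SD was 0.171 at the dim end and 0.0511 at the bright end. It had 11.9 prior and 2 residual degrees of freedom. The constant fit and the other alternatives are in the closing section. Groups and replicate numbers come from the titles, and only 2 arrays a group limit the precision. Limma p-values set a difference against the spread between these samples, moderated by spread pooled over probe sets.

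Of the probe sets, 15886 had 1 gene symbol in the platform annotation, and symbols were updated by Entrez identifier to RefSeq GRCh38.p14. Named genes are the 7 effector genes, DROSHA, every called gene and up to 3 further genes of smallest p in each pathway list, 3 neighbours on each side of the chromosome 1 block and the 5 profiles nearest to AGO4. Members, lists, the trended fit and the pairs with AGO4 were chosen with earlier results of these data known.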

Additional observations from a re-analysis of the deposited data

How the results depend on the processing

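All alternatives were planned. AGO1, AGO2, AGO4, TNRC6B and DROSHA kept their direction under every alternative run, which was largely fixed in advance. The choice of prior, the signal filters and the replicate block leave a difference unchanged by construction. Where groups do not overlap, as for these genes, leaving out 1 array cannot change the sign. Only quantile normalization again and centring on medians could have changed it. AGO4 was not fitted without probe sets below the median signal, being dimmer. Over all probe sets, 1192 calls became 1 (1 higher, 0 lower; 2774 at unadjusted p under 0.05 in limma) with a constant prior variance and 1824 at adjusted p 0.10. They were 535 to 1949 without single arrays: 1949 without shDROSHA replicate 1, 535 without shNC replicate 1 and 748 without shNC replicate 2. With arrays centred on their medians 62.5% of calls were higher, against 48.7% as deposited. The count of 0 among the 7 effector genes (3 at unadjusted p under 0.05 in limma) became 1, AGO4, at adjusted p 0.10, and was 0 to 1 without single arrays. The count of 3 in the pathway lists became 0 with a constant prior variance (6 at unadjusted p under 0.05 in limma), 5 with quantile normalization again (3 higher, 2 lower), 6 without probe sets below the lower quartile (4 and 2), 5 without those below the median (4 and 1), 6 with the threshold at 0.10 (4 higher, 2 lower), and 0 to 8 without single arrays (8 without shDROSHA replicate 1, 5 higher and 3 lower; 3 without shDROSHA replicate 2, 1 higher and 2 lower; 3 without shNC replicate 2, 2 higher and 1 lower; 0 without shNC replicate 1, with 7 in limma at unadjusted p under 0.05). The DROSHA difference of -0.99 did not pass with a constant prior variance (limma adjusted p 0.0843). TNRC6C changed sign to 0.019 with quantile normalization again and to 0.017 with arrays centred. Without single arrays the differences ranged from -0.41 to -0.21 for AGO1, 0.17 to 0.25 for AGO2, -0.015 to 0.024 for AGO3, -0.64 to -0.45 for AGO4, -0.069 to 0.16 for TNRC6A, -0.28 to -0.03 for TNRC6B, -0.072 to 0.0396 for TNRC6C and -1.04 to -0.94 for DROSHA. With the replicate number as a block, 1391 probe sets, 0 effector genes (AGO4 adjusted p 0.066 in limma) and 5 pathway genes (4 higher, 1 lower) were called. Same-numbered arrays' deviations had a correlation of -0.022. With 2 arrays a group this cannot exclude a shared batch, and the titles give a number and no pairing. A looser threshold acts by construction, and other causes were not tested. Where an array was left out, its group held 1 array and had no spread of its own. The p-values and counts of those fits rest largely on spread pooled over probe sets. Residual spread was larger in bins of dimmer probe sets, which limits such genes.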
